A study of Rattus norvegicus with 36 samples.

Results

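Chromatin modifiers and remodelers are the enzymes and complexes that write, erase and read marks on histones and DNA and that slide, eject or exchange nucleosomes. Members were taken by gene name from the array annotation: probes whose only symbol begins with Hdac, Kdm, Kmt, Setd, Smarc, Sirt or Dnmt, or with Chd, Brd, Tet or Ubn and a digit, or is Ep300, Crebbp, Ezh1, Ezh2, Kat2a or Kat2b. The rule uses names and detection, not fold changes, and was set with earlier results of these data known. Of 22523 probes on the array, 65 probes of 61 genes carried such a name, and 54 probes of 53 genes had a detection score of at least 0.95 on at least 7 of the 36 arrays and were kept, among 10956 detected probes in all. The other 11 probes did not reach 7 arrays and are not described further. They were those of Brd3, Hdac6, Kdm3b and Kmt2d (each on 0 arrays), Chd2 (1), Ezh2 (2), Smarcd1 (2) and Kdm1b (6), together with second probes of Chd6 (0), Dnmt3l (1) and Hdac1l (4). No probe carried the symbol Ep300, Crebbp, Kat2b or that of a Tet gene.

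The data hold whole-heart RNA of 36 male Wistar-Kyoto (WKY) rats on Illumina rat expression beadchips, 1 array per rat. All were Control rats, offspring of sham-operated mothers with litters of normal size. Sedentary rats (n = 7) and early exercise rats (n = 7), which ran on a treadmill from week 5 to week 9, were killed at 9 weeks of age. Sedentary rats (n = 7), early exercise rats left untrained after week 9 (n = 8) and later exercise rats trained from week 20 to week 24 (n = 7) were killed at 24 weeks. Rats trained up to the time of killing were taken some days after the last bout. Brothers were spread over treatments, but the labels do not tie rats to litters, and p-values rest on the spread between rats.

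In cell nuclei DNA is wound on histones, and acetyl and methyl groups on histone tails set how open a stretch of chromatin is. Acetyltransferases and bromodomain readers are tied to active genes, and deacetylases, among them the class of HDACs that restrains the hypertrophic gene programme of heart muscle, are tied to repression. Lysine methyltransferases and demethylases (KMT, SETD, EZH and KDM proteins) place and remove methyl groups that can mark either state. SWI/SNF, CHD and ISWI ATPases move nucleosomes, ubinucleins deposit a replacement variant of histone H3, and DNMT enzymes methylate cytosine. Sirtuins are deacylases that need NAD, and several of them work in mitochondria and not in the nucleus.

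Values are log2 normalized signals of each probe, as deposited. Between arrays the correlation ran from 0.964 to 0.996, and 8625 to 10244 probes were detected per array. Of the 54 member probes, 43 were detected on all 36 arrays and 11 on fewer, the fewest being 10 arrays for Kdm4a. The number of arrays per group limits the precision. The raw arrays of later exercise rats were dim before normalization: their mean raw signal was 315 to 709, against 715 to 1307 in sedentary rats of 24 weeks, a ratio of 0.592 (two-sided exact permutation p = 0.000583, adjusted p = 0.00291 over 5 comparisons). For early exercise rats of 24 weeks the ratio to sedentary rats was 0.798 (exact permutation test, adjusted p = 0.0445). A length score, the mean log2 level of 23 probes of very long transcripts minus that of 57 probes of ribosomal protein genes, was -4.48 ± 0.25 (SD, n = 7) in later exercise rats and -4.01 ± 0.19 (SD, n = 7) in sedentary rats of 24 weeks (exact permutation test, adjusted p = 0.00291). It was also below its sedentary reference in early exercise rats, by -0.37 at 24 weeks and by -0.30 at 9 weeks (exact permutation tests, adjusted p = 0.00233 and 0.0068). Cardiomyocyte markers were present, with 7 of 8 detected and only Pln missing.

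Later exercise against sedentary rats at 24 weeks was the comparison that moved chromatin genes most. Levels fell in 8 of 54 member probes (14.8%) and rose in 0, where 12.4% of all detected probes were called, 7.79% lower and 4.59% higher (limma, adjusted p below 0.05). With chip as a block 11 members were lower and 2 higher, given here without the share of all probes in that fit. The 8 were Ubn1 and Ubn2, which deposit the replacement histone, the histone demethylase Kdm6b, the histone methyltransferases Kmt5b and Setd2, the DNA methyltransferase Dnmt3b, and the remodeling ATPases Smarcad1 and Chd6. The median log2 fold change of the 54 members was -0.11, against -0.01 over all detected probes. The difference was below 0 in 36 of 54 members (66.7%) and in 51.9% of all probes, and 17 members (14 lower and 3 higher, 31.5% in all) had an unadjusted p below 0.05, as did 26.2% of all probes. A share of calls near the background says nothing particular about chromatin genes. In whole heart, fewer cells of a type and less RNA per cell cannot be told apart.

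**Figure D1:**
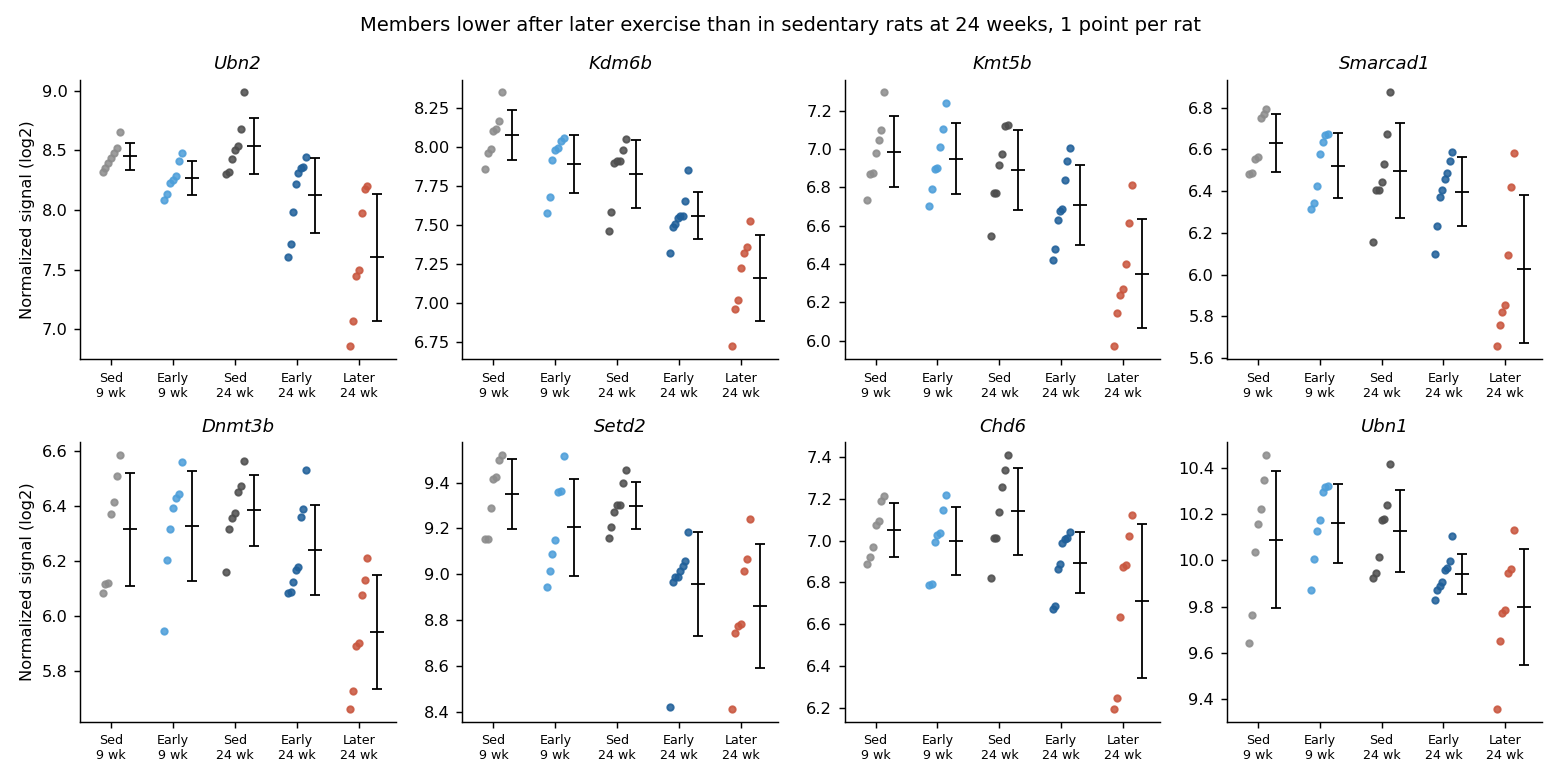
Log2 normalized signal (vertical axis, each panel on its own scale) of the 8 members that fell, 1 point per rat in the 5 groups, with the group mean and SD beside the points. Later exercise rats sit lowest in every panel by their mean, and only for Ubn2 does their whole range lie below that of sedentary rats of 24 weeks.

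Ubn2, a ubinuclein of the histone chaperone that deposits the replacement variant of histone H3, lay at 8.30 to 8.99 (median 8.50) in sedentary rats of 24 weeks. In early exercise rats of that age it lay at 7.61 to 8.45 (median 8.26), and in later exercise rats at 6.86 to 8.20 (median 7.50). All 7 later exercise rats were below the lowest sedentary rat, as were 4 of 8 early exercise rats, and Ubn2 was the only member whose later exercise and sedentary ranges did not overlap (1.85% of members, against 1.44% of all probes in either direction and 1.1% with later exercise rats lower). Its log2 fold change after later exercise was -0.93 (SE 0.16), a fold of 0.524 (limma, adjusted p = 0.000202). On chips 1, 2 and 3 taken alone it was -1.26, -0.47 and -0.83. Its paralog Ubn1 lay at 9.92 to 10.42 (median 10.17) in sedentary, 9.83 to 10.11 (median 9.93) in early exercise and 9.36 to 10.13 (median 9.78) in later exercise rats of 24 weeks. These ranges overlapped, with 4 of 7 later exercise rats below the lowest sedentary rat. The log2 fold change of Ubn1 was -0.33 (SE 0.11, adjusted p = 0.0421), the weakest of the 8 calls. It was lost when any of sedentary replicates 3, 5, 6 or 7 or later exercise replicates 1, 2, 4 or 6 was left out (log2 fold change -0.26 to -0.33, adjusted p = 0.0564 to 0.131).

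Kdm6b removes methyl groups of the polycomb mark and so works against polycomb repression. Its signal lay at 7.46 to 8.05 (median 7.91) in sedentary, 7.32 to 7.85 (median 7.55) in early exercise and 6.72 to 7.52 (median 7.23) in later exercise rats of 24 weeks. Of the 7 later exercise rats 6 were below every sedentary rat, and all 7 were below the median of early exercise rats. The log2 fold change was -0.66 (SE 0.11), a fold of 0.631, with the smallest adjusted p of any member (0.000131). It was -0.84, -0.54 and -0.62 on chips 1, 2 and 3. Of the other demethylases, Kdm2a differed by -0.28 (adjusted p = 0.111), Kdm4c by -0.22 (adjusted p = 0.173) and Kdm8, which lies on the other side, by 0.23 (adjusted p = 0.232).

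Among the methyltransferases, Kmt5b adds methyl groups to histone H4 in silent chromatin. It lay at 6.55 to 7.12 (median 6.92) among sedentary rats of 24 weeks, whereas later exercise rats lay at 5.97 to 6.81 (median 6.27), with 5 of 7 later exercise rats below every sedentary rat. Its log2 fold change was -0.54 (SE 0.11, adjusted p = 0.00187). Setd2, which travels with RNA polymerase and marks the bodies of transcribed genes, lay at 9.16 to 9.45 (median 9.30) in sedentary rats. Later exercise rats spanned 8.41 to 9.24 (median 8.78). Here 6 of 7 later exercise rats and 7 of 8 early exercise rats fell below the whole sedentary range. The log2 fold change of Setd2 after later exercise was -0.44 (SE 0.11, adjusted p = 0.00636). The other 6 probes of this class were also below 0 without passing the test, from -0.03 for the second Ezh1 probe to -0.26 for Kmt5c. They include Kmt2e and Setd5, placed by family name, whose enzyme activity is unsettled.

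Dnmt3b, which places new methyl groups on DNA, gave a weak signal. It lay at 6.16 to 6.56 (median 6.37) in sedentary rats of 24 weeks, later exercise rats spanned 5.66 to 6.21 (median 5.90), and it was detected in 7 of 7 of the former and 4 of 7 of the latter. Of the 7 later exercise rats, 6 were below every sedentary rat, and the log2 fold change was -0.44 (SE 0.10, adjusted p = 0.00305). Dnmt1, the maintenance enzyme that copies methylation after replication, differed by -0.27 (adjusted p = 0.0985) and passed with chip as a block (adjusted p = 0.0185) or without sedentary replicate 2 or later exercise replicate 7 (adjusted p = 0.047 and 0.044). Dnmt3a differed by -0.19 (adjusted p = 0.328).

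Smarcad1, an ATPase that keeps repressive chromatin in place after replication, lay at 6.16 to 6.87 (median 6.44) in sedentary rats of 24 weeks, and later exercise rats spanned 5.66 to 6.58 (median 5.85). It was detected in 7 of 7 sedentary but only 3 of 7 later exercise rats, and 5 of 7 later exercise rats were below the whole sedentary range. The log2 fold change was -0.47 (SE 0.12, adjusted p = 0.00626). Chd6, a chromodomain ATPase, lay at 6.82 to 7.41 (median 7.14) in sedentary rats and later exercise rats spanned 6.20 to 7.12 (median 6.87), with 3 of 7 below the sedentary range and a log2 fold change of -0.43 (SE 0.11, adjusted p = 0.0117). Its relatives Chd8 and Chd1 differed by -0.28 and -0.23 without passing the test (adjusted p = 0.058 and 0.0596), and with chip as a block both passed (adjusted p = 0.0117 and 0.0471). Chd8 also passed without sedentary replicate 2 or 3 or later exercise replicate 2 or 7 (adjusted p = 0.0443, 0.0469, 0.0197 and 0.0313), and Chd1 without sedentary replicate 1 (adjusted p = 0.033).

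Each of the 7 later exercise rats was below the whole sedentary range in 5 to 7 of these 8 members, a description only, since the 8 were picked for their fall in these rats. The 8 early exercise rats of 24 weeks were below it in 1 to 6 of the 8, with replicate 8 at 6. Within the 3 chips, all 24 differences of the 8 members lay below 0. In the later exercise group the dimmest arrays, replicates 3 and 5 with a mean raw signal of 315 and 373, had 5 and 6 members below the sedentary range, and the brightest, replicate 4 at 709, had 7. Replicate 4 also had the lowest length score, -4.99.

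**Figure D2:**
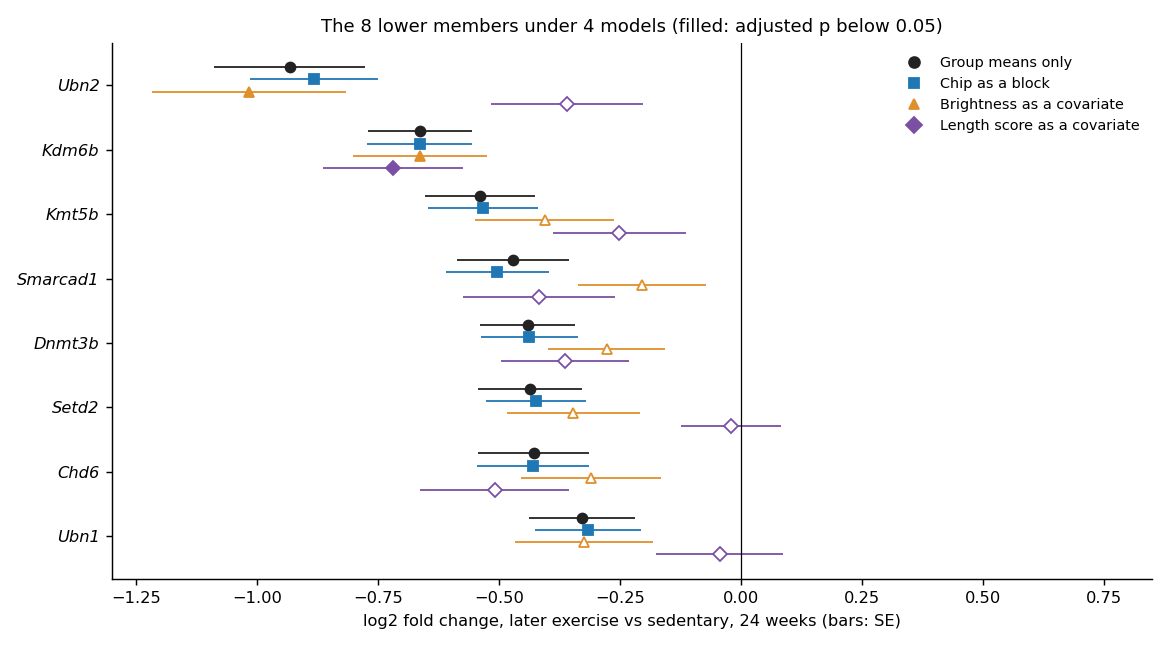
Log2 fold change of the 8 members in later exercise against sedentary rats of 24 weeks (horizontal axis, bars SE), fitted with group means alone, with chip as a block, and with array brightness or the length score as a covariate, filled where the adjusted p was below 0.05. Kdm6b is filled in all 4 models, Ubn2 in 3, and Setd2 and Ubn1 lie near 0 with the length score.

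Brightness and the length score moved with later exercise, so the same contrast was fitted with each as a covariate. Mean raw signal did not overlap between the 2 groups (315 to 709 against 715 to 1307), so the brightness fit rests on extending a slope. Of the 23 long-transcript probes in the length score, 12 were themselves called lower in this contrast. A call kept or lost in these fits therefore does not rank the members. With the log2 mean raw signal in the model, Ubn2 (-1.02, adjusted p = 0.0124) and Kdm6b (-0.66, adjusted p = 0.0148) passed and the other 6 did not, at -0.21 for Smarcad1 to -0.41 for Kmt5b. With the length score in the model, Kdm6b alone of the 8 passed (-0.72, adjusted p = 0.0054). Setd2 and Ubn1 were then at -0.02 and -0.04, and Ubn2 at -0.36 (adjusted p = 0.21). In the annotation the genes of the 8 called probes had a median span of 59.4 kb, against 28.7 kb for the 46 members not called. Over the 54 members, span and log2 fold change had a Spearman rho of -0.372, and over 8029 detected probes with a span it was -0.359. The points share arrays and normalization, so this is a description only. When arrays were scaled to a common median in place of quantile normalization, 38 of all probes were higher and 4586 lower, against 503 and 853 in the quantile normalized values. The median of all probes itself shifted to -0.28, and relative to that shift the 8 lay between -0.20 (Dnmt3b) and -1.13 (Ubn2).

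The promoters of Ubn2, Ubn1 and Kdm6b are shown because these are the chaperone pair that fell together and the call that held in all 4 models above. Sequences are from RefSeq (GRCr8), 1 start site per gene, and each covers 250 bases before and 50 bases after the start. They lie at chr4:68133011-68133310 on the plus strand, chr10:11038417-11038716 on the minus strand and chr10:54640965-54641264 on the minus strand. Capitals mark every match, on either strand, to the GC box (GGGCGG), the CCAAT box (CCAAT), the ETS motif (CCGGAAG), the cyclic AMP response element (TGACGTCA), the NRF1 motif (GCATGCGC), the E-box (CACGTG) and the TATA box (TATAAA), and matches that touch or overlap run together.
Ubn2: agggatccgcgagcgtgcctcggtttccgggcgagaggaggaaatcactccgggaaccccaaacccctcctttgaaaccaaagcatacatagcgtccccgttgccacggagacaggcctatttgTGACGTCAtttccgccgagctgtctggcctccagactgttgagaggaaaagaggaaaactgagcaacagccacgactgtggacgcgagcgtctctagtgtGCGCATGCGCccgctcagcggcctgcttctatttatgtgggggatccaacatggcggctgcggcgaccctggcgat
Ubn1: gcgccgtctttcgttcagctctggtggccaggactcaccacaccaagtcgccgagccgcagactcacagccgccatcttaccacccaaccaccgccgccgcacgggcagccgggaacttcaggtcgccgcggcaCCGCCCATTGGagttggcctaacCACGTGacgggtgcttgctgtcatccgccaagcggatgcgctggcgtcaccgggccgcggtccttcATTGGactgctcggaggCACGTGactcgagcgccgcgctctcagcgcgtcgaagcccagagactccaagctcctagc
Kdm6b: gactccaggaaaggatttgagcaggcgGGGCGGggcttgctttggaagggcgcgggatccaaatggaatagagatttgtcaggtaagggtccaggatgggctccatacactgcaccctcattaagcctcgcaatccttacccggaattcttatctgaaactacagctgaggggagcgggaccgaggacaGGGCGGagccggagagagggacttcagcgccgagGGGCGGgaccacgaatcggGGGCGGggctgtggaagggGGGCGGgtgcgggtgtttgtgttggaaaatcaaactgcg

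The Ubn2 window held 1 cyclic AMP response element and 2 overlapping NRF1 matches, 1 on each strand, the Ubn1 window 1 GC box, 2 CCAAT boxes and 2 E-boxes, and the Kdm6b window 5 GC boxes. Windows were given for 44 of 53 member genes and for 7 of the 8 fallen ones, Dnmt3b being without one. A GC box stood in 34 of 44 member windows (77.3%) and in 34.9% of 27455 windows of all genes. The cyclic AMP element stood in 2 of 44 (4.55%) against 1.91%, the NRF1 motif in 6 of 44 (13.6%) against 2.66%, and the ETS motif in 6 of 44 (13.6%) against 9.22%. A TATA box stood in 1 of 44 (2.27%) against 14.3%, a CCAAT box in 18 of 44 (40.9%) against 37.7%, and an E-box in 4 of 44 (9.09%) against 6.65%. Members had a median of 23.5 CG dinucleotides per window, the 7 fallen members 25 and all windows 7. Member genes had to be detected in these hearts, whereas the 27455 windows were not limited to detected genes. The part of detection in these differences was not tested. Among the 7 fallen members no motif was shared by all, with a GC box in 5, a CCAAT box in 3, the cyclic AMP element, the NRF1 motif and the E-box in 1 each and the ETS motif and TATA box in 0.

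**Figure D3:**
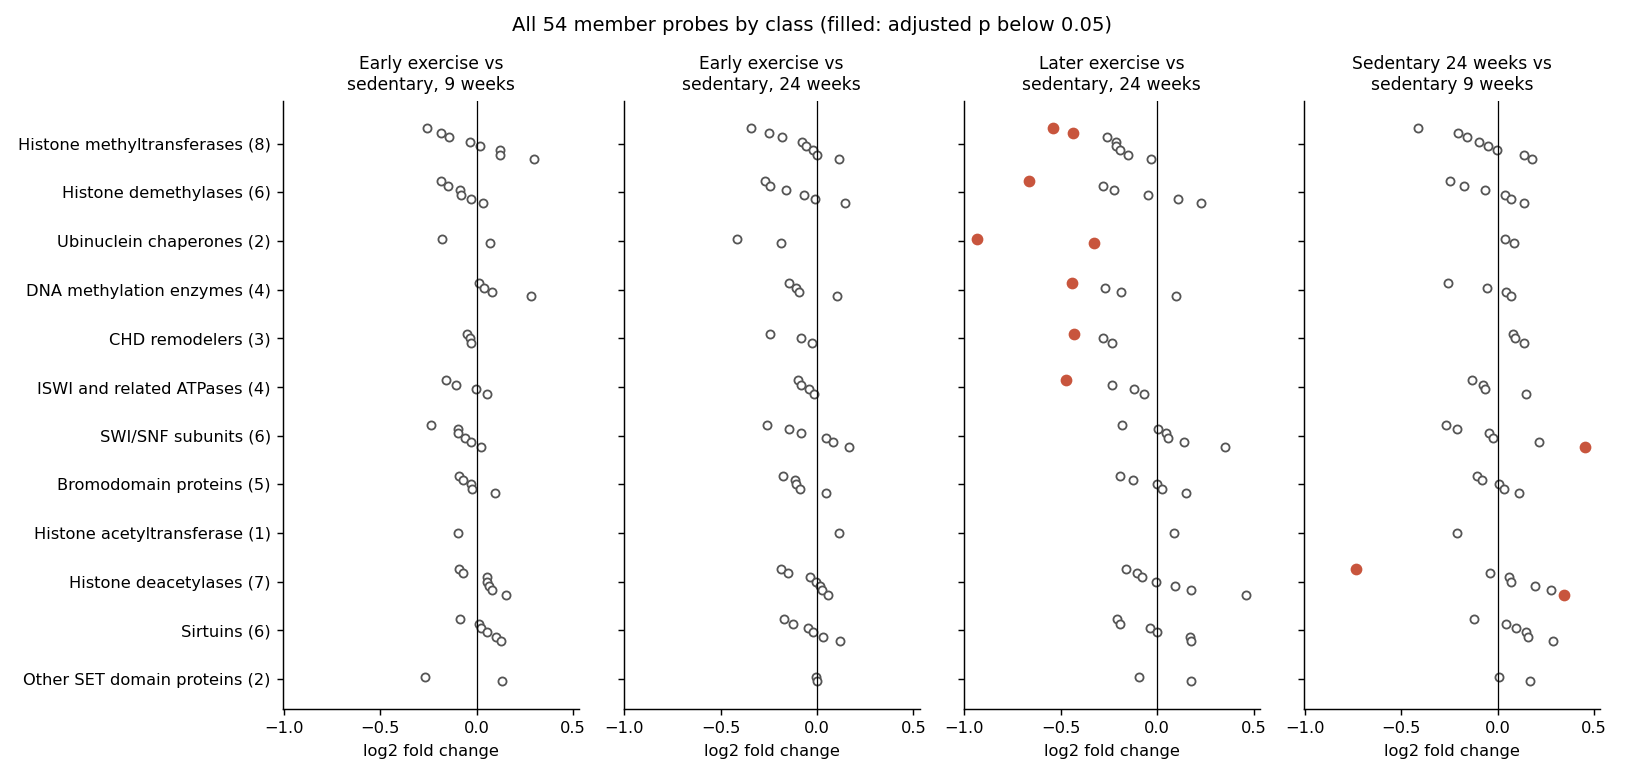
Log2 fold change (horizontal axis) of the 54 member probes by class (rows, number of probes in brackets) in 4 comparisons, 1 point per probe, filled where the limma adjusted p was below 0.05. In the later exercise panel all methyltransferase, chaperone, CHD and ISWI-related points lie left of 0 and 5 of 6 SWI/SNF points right of it (6 of 6 were below 0 with arrays scaled to a common median), and the age panel holds 3 filled points.

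By class, the later exercise difference was below 0 for 8 of 8 methyltransferase probes (median -0.21, 2 fell) and 2 of 2 ubinucleins (both fell). It was below 0 for 3 of 3 CHD proteins (1 fell) and 4 of 4 ISWI and related ATPases (1 fell). It was below 0 for 4 of 6 demethylases (1 fell) and for 3 of 4 DNA methylation enzymes (1 fell), with Dnmt3l, a cofactor without catalytic activity, at 0.10. Classes follow family names: the methyltransferase probes include 2 of Ezh1 and those of Kmt2e and Setd5, whose enzyme activity is unsettled. SET domain proteins kept apart were split, Setd4 at -0.10 and Setd6 at 0.18. The related ATPase Smarcad1 fell, while the ISWI ATPases Smarca1 and Smarca5 were at -0.12 and -0.07 (limma adjusted p = 0.329 and 0.687). SWI/SNF subunits lay above 0 in 5 of 6 (median 0.05), none past the test, but under median scaling of the arrays 6 of 6 lay below 0 and 5 of 6 below the median of all probes. Their highest in the quantile normalized values was Smarcd2, a subunit of the core complex, at 0.35 (adjusted p = 0.155). Under median scaling 40 of 54 members fell (74.1%) and 0 rose, where 42.2% of all probes were called, and 16 members changed sign, 10 of them to a value below 0 that passed. The splits given next for deacetylases, sirtuins and bromodomain proteins became 7 of 7, 6 of 6 and 5 of 5 below 0. The median of all probes itself lay at -0.28 in that scaling. Relative to it, deacetylases were still split, 4 below and 3 above, sirtuins were 5 below and 1 above, and bromodomain proteins 5 below and 0 above. In the quantile normalized values deacetylases were split, 4 of 7 below 0, from -0.16 for Hdac11 to 0.46 for Hdac2 (adjusted p = 0.183). Sirtuins were split 3 and 3, from -0.21 for Sirt2, a cytoplasmic deacetylase, to 0.18 for the mitochondrial Sirt4, where Sirt3 and Sirt4 were called higher with chip as a block (adjusted p = 0.0469 and 0.045), and bromodomain proteins 3 below and 2 above, from -0.19 for Brd1 to 0.15 for Brd7. Kat2a, the acetyltransferase of the SAGA complex and the only one detected, differed by 0.09 (adjusted p = 0.584). Sirt5, the mitochondrial desuccinylase, hardly moved between groups, with means of 12.14 ± 0.09 in both sedentary and later exercise rats of 24 weeks (SD, n = 7 each). Its difference was 0.00 (SE 0.06). Of the probes with the most signal in other classes, Smarcd3, the SWI/SNF subunit of heart development, differed by 0.00 (SE 0.08). Brd9, a SWI/SNF bromodomain subunit, differed by 0.02 (SE 0.10) and Smarca5, an ISWI ATPase, by -0.07 (SE 0.09). Kmt5a, which adds the first methyl group to histone H4, differed by -0.15 (SE 0.08) and Setd6 by 0.18 (SE 0.13), none of these past the test. Ubn1, the brighter ubinuclein, fell (-0.33, limma adjusted p = 0.0421). With median scaling Sirt5, Smarcd3, Brd9 and Setd6 were among the members called lower.

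Ezh1, the polycomb methyltransferase of resting cells, was the only gene with 2 member probes. The probe detected on 36 arrays had means of 8.08 ± 0.33 in sedentary (SD, n = 7) and 7.86 ± 0.20 in later exercise rats (SD, n = 7) of 24 weeks, a difference of -0.21 (SE 0.14, adjusted p = 0.359). The probe detected on 15 arrays differed by -0.03 (SE 0.08, adjusted p = 0.836) and stayed near the detection limit in all groups. Both were below 0, and neither passed the test.

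In rats trained early and then left untrained until 24 weeks of age, no member passed the test. Levels differed from sedentary rats in 0 of 54 members and in 0% of all detected probes (limma, adjusted p below 0.05, and likewise 0 members in the model without moderation). At an unadjusted p below 0.05 there were 9 members, all lower, that is 16.7% against 10.4% of all probes (5.98% lower). The fold change was below 0 in 40 of 54 members (74.1%, against 51.2% of all probes), with a median of -0.07 over members. The members with the smallest p were Setd2 at -0.34 (SE 0.10, adjusted p = 0.203), Ubn2 at -0.41 (SE 0.15, adjusted p = 0.289), Kdm6b at -0.27 (SE 0.10, adjusted p = 0.327), Sirt6 at -0.17 (SE 0.07, adjusted p = 0.396) and Brd8, a bromodomain subunit of an acetyltransferase complex, at -0.17 (SE 0.08, adjusted p = 0.399). Setd2 in early exercise rats lay at 8.42 to 9.18 (median 9.00), and 7 of 8 rats were below the lowest sedentary rat at 9.16. Without early exercise replicate 8 its difference was -0.27. On the higher side the smallest p values were those of Dnmt3l (0.10), Sirt3 (0.12), Kat2a (0.12), Kdm8 (0.14) and Smarcd2 (0.16), none past the test.

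For all 8 members that fell with later exercise, the mean of early exercise rats of 24 weeks lay between those of sedentary and later exercise rats. This is a description only, since the 8 were picked for high sedentary and low later exercise values in these arrays. That choice by itself favours an early exercise mean in between. The share of all probes called lower that show the same order is not given here. The comparisons of early and of later exercise with sedentary rats use the same sedentary rats, so their values stand side by side only as values. Set against each other directly, later and early exercise rats differed in 0 of 54 members, against 0.438% of all probes (limma, adjusted p below 0.05), and in 11 members (20.4%, against 12.2% of all probes) at an unadjusted p below 0.05. The difference was below 0 in 30 of 54 members and in 52.1% of all probes. Kdm6b came nearest at -0.40 (SE 0.10, adjusted p = 0.0675), and all 7 later exercise rats were below the early exercise median of 7.55. Next were Ubn2 at -0.52 (SE 0.15, adjusted p = 0.118), Smarcad1 at -0.37 (SE 0.11, adjusted p = 0.135), Kmt5b at -0.36 (SE 0.11, adjusted p = 0.139) and Dnmt3b at -0.30 (SE 0.10, adjusted p = 0.161). With chip as a block Kdm6b and Ubn2 passed (adjusted p = 0.0499 and 0.0418). Single rats also decided these calls: Kdm6b passed without early exercise replicate 4 or later exercise replicate 3 (adjusted p = 0.0499 and 0.0364), Ubn2 without early exercise replicate 8 or later exercise replicate 7 (0.0362 and 0.0307), Smarcad1 without later exercise replicate 6 (0.0476), and Kmt5b and Smarca4 without later exercise replicate 7 (0.0374 and 0.0483). On the higher side the members with the smallest p, in order of size, were Hdac2 at 0.47 (adjusted p = 0.376), Smarca4, the ATPase of SWI/SNF, at 0.40 (adjusted p = 0.137), Sirt4 at 0.22 (adjusted p = 0.461), Sirt6, a nuclear sirtuin, at 0.14 and Brd7 at 0.11 (adjusted p = 0.554).

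At 9 weeks, at the end of early training, 0 of 54 members differed between exercised and sedentary rats, as did 0% of all detected probes (limma, adjusted p below 0.05, with 0 members also in the model without moderation). At an unadjusted p below 0.05 there were 3 members (5.56%, against 7.92% of all probes), and 30 of 54 differences were below 0, against 50% of all probes. The 3 were Dnmt1 at 0.28 (SE 0.11, adjusted p = 0.518), Kmt5c at 0.30 (SE 0.14, adjusted p = 0.609) and Setd6, whose known substrate includes a subunit of NF-kappa B, at -0.27 (SE 0.13, adjusted p = 0.615). The differences of Setd6 were -0.27, -0.35 and -0.24 on chips 1, 2 and 3, and those of Kmt5c were -0.08, 0.36 and 0.61. The next by p were Smarca4 (-0.24), Smarca5 (-0.16), Kdm6b (-0.18) and Setd5 (-0.18) on the lower side and Kmt5a (0.12), Hdac8 (0.15) and Sirt6 (0.10) on the higher, with adjusted p of 0.66 to 0.791.

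Training response was next compared between ages, as the later exercise difference at 24 weeks minus the early exercise difference at 9 weeks, which share no rats. The contrast passed the test in 0 of 54 members and in 0.146% of all probes (limma, adjusted p below 0.05), with 12 members (22.2%, against 13.1% of all probes) at an unadjusted p below 0.05. It was below 0 in 37 of 54 members, against 53.1% of all probes. Dnmt1 had the smallest p, at -0.55 (SE 0.15, adjusted p = 0.13): its mean was 8.35 ± 0.17 in exercised against 8.07 ± 0.25 in sedentary rats at 9 weeks, and 7.84 ± 0.23 in later exercise against 8.12 ± 0.16 in sedentary rats at 24 weeks (SD, n = 7 each). The contrast was below 0 on each chip (-0.43, -0.50 and -0.71), and Dnmt1 passed with chip as a block (adjusted p = 0.0331). Ubn2 followed at -0.75 (SE 0.22, adjusted p = 0.139), then Dnmt3b at -0.45 (SE 0.14, adjusted p = 0.162), Kdm6b at -0.48 (SE 0.15, adjusted p = 0.166) and Kmt5b at -0.50 (SE 0.16, adjusted p = 0.17). On the other side stood Setd6 at 0.44, Smarca4 at 0.38, Sirt3 at 0.26, Smarcd2 at 0.45 and Kdm8 at 0.31, with adjusted p of 0.291 to 0.441.

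Between 9 and 24 weeks of age, sedentary hearts changed in 3 of 54 members (5.56%, 2 higher and 1 lower), where 6.56% of all probes changed, 3.48% higher and 3.09% lower (limma, adjusted p below 0.05). Smarcc1, a scaffold subunit of SWI/SNF, and Hdac11, a deacylase of its own class, rose, and Hdac2, a class I deacetylase of the nuclear corepressor complexes, fell. None of the 3 was among the 8 members that fell with later exercise. At an unadjusted p below 0.05 there were 9 members (16.7%, against 19.4% of all probes), and 24 of 54 were below 0, against 48.8% of all probes. Under median scaling of the arrays 0 of the 3 passed (Hdac2 -0.83, Smarcc1 0.36 and Hdac11 0.31, adjusted p = 0.111, 0.431 and 0.343).

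**Figure D4:**
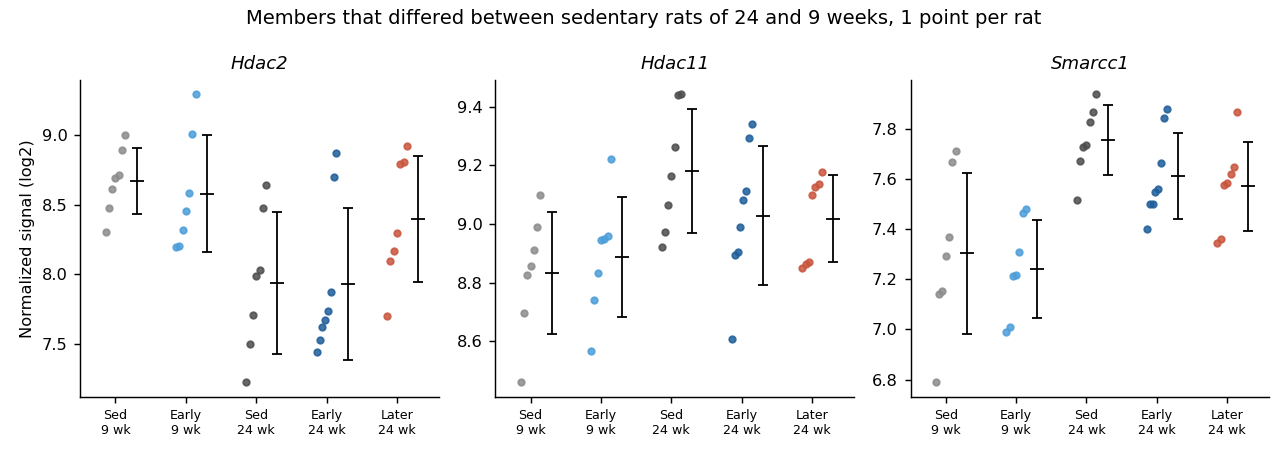
Log2 normalized signal (vertical axis, each panel on its own scale) of Hdac2, Hdac11 and Smarcc1, 1 point per rat in the 5 groups, with the group mean and SD beside the points. Hdac2 is lower and Hdac11 and Smarcc1 are higher in sedentary rats of 24 than of 9 weeks, with overlapping ranges in each panel.

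Smarcc1 lay at 6.79 to 7.72 (median 7.29) in sedentary rats of 9 weeks and at 7.52 to 7.94 (median 7.74) in those of 24 weeks. Of the 7 older rats 5 were above the whole range of the younger, and the log2 fold change was 0.45 (SE 0.11, adjusted p = 0.00839), with 0.29, 0.30 and 0.84 on chips 1, 2 and 3. Hdac11 lay at 8.46 to 9.10 (median 8.86) at 9 weeks and 8.92 to 9.44 (median 9.16) at 24 weeks. The ranges overlapped more, with 4 of 7 older rats above the younger, and the log2 fold change was 0.35 (SE 0.11, adjusted p = 0.0449). Hdac2 lay at 8.30 to 9.00 (median 8.69) at 9 weeks and 7.22 to 8.64 (median 7.99) at 24 weeks. Of the 7 older rats 5 were below every younger rat. Its log2 fold change was -0.73 (SE 0.22, adjusted p = 0.0396), with -0.14, -0.86 and -1.13 on chips 1, 2 and 3. The SD of Hdac2 was 0.51 at 24 weeks against 0.24 at 9 weeks. In later exercise rats Hdac2 lay at 7.70 to 8.92 (median 8.30), and 3 of 7 of them were above every sedentary rat of that age, without passing the test.

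The calls of Hdac2 and Hdac11 were close to the threshold. Hdac2 lost its call without any of sedentary 9-week replicates 1, 4, 5, 6 or 7 or 24-week replicates 3, 5, 6 or 7 (log2 fold change -0.61 to -0.74, adjusted p = 0.0522 to 0.114). Hdac11 lost its call without any of 9-week replicates 3, 4, 6 or 7 or 24-week replicates 2, 3, 5 or 6 (0.28 to 0.35, adjusted p = 0.0667 to 0.134). Smarcb1, another core subunit of SWI/SNF, stood just outside the threshold at -0.27 (SE 0.09, adjusted p = 0.051) and passed with chip as a block (adjusted p = 0.0338) and without 9-week replicate 2 or 6 (adjusted p = 0.0304 and 0.0285). Others by p were Kdm6b (-0.25), Kat2a (-0.21) and Kmt2e, a member of the KMT family without settled enzyme activity (-0.41), on the lower side and Kmt5a (0.18), Hdac8 (0.19) and Smarca4 (0.22) on the higher, with adjusted p of 0.177 to 0.358. Fibroblast markers moved with age: 5 of 6 fell, Col1a1 by -2.14 on the log2 scale, and the mean log2 level of the list was 11.95 to 12.21 at 9 weeks and 11.10 to 11.38 at 24 weeks. Of 4 red blood cell markers 2 fell, with a list level of 10.97 to 11.83 at 9 weeks and 10.30 to 11.11 at 24 weeks. Of the cardiomyocyte markers Nppa and Actc1 rose (0.67 and 0.43), while 4 of 9 probes of that list were below 0 (median 0.03). The cardiomyocyte list level was 11.03 to 11.46 at 9 weeks and 11.19 to 11.41 at 24 weeks. The part of these lists in the changes of Hdac2, Hdac11 and Smarcc1 was not tested.

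The promoters of Hdac2 and Smarcc1 (RefSeq, GRCr8, same motifs in capitals) are shown as those of the members with the largest changes with age in each direction. They lie at chr20:42102877-42103176 on the plus strand and chr8:118989306-118989605 on the plus strand, and as for Ubn2 the start used lies inside the outer limits of the annotated gene.
Hdac2: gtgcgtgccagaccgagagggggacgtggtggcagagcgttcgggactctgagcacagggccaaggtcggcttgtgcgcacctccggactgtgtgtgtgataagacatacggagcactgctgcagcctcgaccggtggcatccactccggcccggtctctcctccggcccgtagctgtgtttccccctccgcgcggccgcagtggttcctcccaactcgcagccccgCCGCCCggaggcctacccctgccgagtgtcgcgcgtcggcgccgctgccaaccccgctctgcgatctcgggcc
Smarcc1: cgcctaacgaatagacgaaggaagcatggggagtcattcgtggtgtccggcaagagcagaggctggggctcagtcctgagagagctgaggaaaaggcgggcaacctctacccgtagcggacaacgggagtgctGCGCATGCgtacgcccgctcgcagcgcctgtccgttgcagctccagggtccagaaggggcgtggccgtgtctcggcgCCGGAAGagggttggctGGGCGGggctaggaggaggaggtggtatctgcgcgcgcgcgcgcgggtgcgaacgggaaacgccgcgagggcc

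The Hdac2 window held 1 GC box and 33 CG dinucleotides, and the Smarcc1 window held 1 GC box, 1 ETS motif, 1 NRF1 motif and 34 CG dinucleotides. None of the other motifs stood in either.

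Marker lists of other cell types were also read beside the later exercise result. The cardiomyocyte list had a mean log2 level of 10.96 to 11.55 in later exercise and 11.19 to 11.41 in sedentary rats of 24 weeks. For fibroblast markers these ranges were 10.95 to 11.49 and 11.10 to 11.38, and for macrophage markers 8.13 to 8.57 and 8.01 to 8.39. For adipocyte markers they were 9.97 to 10.30 and 9.75 to 10.10, and for endothelial markers 8.86 to 9.94 and 9.31 to 9.53. For smooth muscle and pericyte markers they were 6.69 to 7.36 and 6.67 to 7.48, and for red blood cell markers 10.53 to 11.34 and 10.30 to 11.11. Detected were 6 of 6 fibroblast, 4 of 6 macrophage, 3 of 4 adipocyte, 4 of 6 endothelial, 3 of 6 smooth muscle and pericyte and 4 of 4 red blood cell markers, with Pecam1, Kdr, Cd68, Csf1r, Acta2, Myh11, Pdgfrb and Plin1 not detected. Single markers that passed higher were Col3a1 (0.53), C1qb (0.52) and Cfd (0.55), and no marker on these lists passed lower. The fibroblast list did not follow Col3a1: 4 of its 6 probes were below 0 (median -0.14). Below 0 were also 1 of 4 macrophage probes (median 0.04) and 0 of 3 adipocyte probes (median 0.20). The part of these lists in the fall of the 8 members was not tested.

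Beyond the named families, 126 further chromatin genes (127 probes, of 8 lists) were read in the same fits. After later exercise 13 of these probes passed (10.2%, against 12.4% of all probes), 7 higher and 6 lower. Of the 4 with the smallest p, Ncor1, the nuclear receptor corepressor that recruits deacetylase activity, fell (-0.54, SE 0.10, adjusted p = 0.000552), as did Mier3, a deacetylase partner (-0.47, SE 0.12, adjusted p = 0.0083). Gps2, another subunit of the Ncor1 complex, rose (0.48, SE 0.10, adjusted p = 0.00145), as did Gadd45b, which takes part in DNA demethylation (0.63, SE 0.13, adjusted p = 0.00189). Of the 18 probes of deacetylase complexes 6 passed, where 12.4% of all probes did. The calls went both ways, 2 higher and 4 lower, with 12 of the 18 below 0 (median -0.14). Deacetylase complexes had the most calls of the 8 lists and were named after the values were seen. Among other acetyltransferases, methyltransferases and demethylases, 0 of 15, 0 of 21 and 0 of 5 probes passed. Other remodeler subunits (24 probes) and other polycomb genes (22) each had 1 higher and 1 lower. Histone chaperones (13) had 2 higher, and DNA methylation readers and partners (9) had 1 higher. Between later and early exercise rats 1 of the 127 probes passed (0.787%, against 0.438% of all probes), Gadd45b (0.54, limma adjusted p = 0.0407). In early exercise rats of either age 0 passed, as did 0% of all probes. With age 6 passed (4.72%, against 6.56% of all probes), 4 higher and 2 lower, and both that were lower, Phc2 and Cbx6 (-0.33 and -0.30), named after their values were seen, belong to the polycomb list. Of the 4 with the smallest p, Cbx7, also of that list, rose by 0.75 (adjusted p = 0.00281), Prmt3, an arginine methyltransferase, by 0.53 (adjusted p = 0.000462), Tada2a, an acetyltransferase adaptor, by 0.46 (adjusted p = 0.00095) and Yeats4, a reader of acylated histones, by 0.31 (adjusted p = 0.00266).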

How the data were processed

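Hearts of 36 rats were measured on Illumina beadchips. The raw signal intensity of each probe, as deposited by the authors, is the scanner summary without background correction, with a deposited detection score beside it that rises with signal on all 36 arrays (taken as 1 minus a detection p). The log2 table deposited by the authors differs by at most 0.0417 from intensities corrected by normexp from the detection score (offset 16), then quantile normalized and logged. Processing notes of the submitters list R (3.2.2) and limma (3.24.15). The methods name another pipeline (lumi and Partek), whose values were not used here. Gene symbols come from the platform annotation, in which 13793 probes carry 1 symbol and 8730 none.

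The deposited log2 values of 10956 detected probes were fitted with limma 3.58.1 (R 4.3.3) as 5 group means, moderated by eBayes. Each of 6 comparisons was adjusted by Benjamini-Hochberg across those probes, at a threshold of 0.05. Named members are those that passed (up to 12 each way) or, in comparisons with under 5 of these, the 5 of smallest p on each side, together with genes of more than 1 probe and the brightest member of each class. Array brightness and the length score were compared by exact two-sided permutation. In simulated data for the later exercise comparison (10956 probes), 71 of 100 probes changed by 0.5 and 97 of 100 changed by 1 were recovered, with 5 false calls. Noise was drawn independently for each probe, without shifts shared across an array. The simulation therefore checks the fit and does not give the false calls in the real arrays. The labels give 3 chips, and every group is on every chip. Alternatives were values recomputed from raw signal, no background correction, median scaling, no detection filter, chip or replicate number as a block, no moderation, brightness or length score as a covariate, only the groups compared, the thresholds of the methods and each rat left out. The members and lists were chosen with earlier results of these data known. Promoters, names and gene spans were matched through RefSeq tables (GRCr8). Names and spans were found for 54 of 54 member probes, and promoter windows for 44 of 53 member genes.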

Additional observations from a re-analysis of the deposited data

Results flagged for a closer look

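Over 30 named members, the 5 groups gave 150 sets of 7 or 8 rats, and in 5 of them 1 rat stood apart from the others by a larger share of the range than Dixon's limit, where chance alone flags about 1 in 20. Setd6 was 8.96 in sedentary replicate 1 of 24 weeks, below the next rat at 9.28. Smarca5 was 9.78 in sedentary replicate 4 of 9 weeks, above the next at 9.54. Setd5 was 9.68 in sedentary replicate 7 of 24 weeks, above the next at 9.24, and Kmt5c was 9.40 in sedentary replicate 5 of 24 weeks, above the next at 9.11. Setd2 was 8.42 in early exercise replicate 8 of 24 weeks, below the next at 8.97, and this rat had the dimmest array of its group (mean raw signal 571) and its lowest length score (-4.58).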

How the results depend on the processing

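The count of members that differed between later exercise and sedentary rats (8) was 8 with recomputed values and without background correction, 7 without the detection filter and 9 with no moderation. With the thresholds of the methods it was 9, with Hdac2 and Smarcd2 on the higher side and Ubn1 left out. It was 13 with chip as a block (2 higher, Sirt3 and Sirt4), 5 with only the groups compared, 2 with brightness as a covariate, 2 with the length score as a covariate (Kdm6b lower and Brd7, 0.33, higher) and 40 with arrays scaled to a common median, all lower, where 38 of all probes were higher and 4586 lower against 503 and 853. For later against early exercise (0) it was 13 with median scaling (all probes 0 higher and 2252 lower, against 7 and 41), 2 with chip as a block and 3 with the thresholds of the methods. For age (3) it was 0 with median scaling (all probes 69 higher and 194 lower, against 381 and 338) and 1 (Smarcc1) without the detection filter. For the training response between ages (0) it was 26 with median scaling (all probes 3 higher and 3453 lower, against 2 and 14), 1 with chip as a block and 8 with the thresholds of the methods. Leaving out each rat gave 7 to 10 members for later exercise, 0 to 3 for later against early exercise, 1 to 4 for age, and 0 throughout for early exercise at 9 and at 24 weeks. The response between ages likewise kept 0. Except for median scaling, these counts and those of the replicate block below stand without the counts over all probes. No reading about chromatin genes apart from other genes is drawn from them. The cause of these shifts was not tested.

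The same replicate numbers did not mark pairs: of 70 same-numbered pairs of rats the deviations from the group means correlated by -0.37 to 0.40 (median 0.05), 29 above 0.1. With the replicate number as a block, which leaves replicate 8 of the early exercise rats without a partner, the count was 9 for later exercise against sedentary rats, 3 for later against early exercise (Ubn2, Kdm6b and Kmt5b) and 1 for the training response between ages (Ubn2), and it stayed 0, 0 and 3 for early exercise at 9 and 24 weeks and for age.

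With median scaling 16 members turned sign in later exercise against sedentary rats and 10 of these passed (Sirt3, Sirt4, Sirt5, Setd6, Kat2a, Brd7, Brd9, Smarcb1, Smarcd3 and Smarce1, -0.29 to -0.51), as did 1 of 15 in the response between ages (Brd9, -0.48). The following, named for their small p, turned without passing. With median scaling, Sirt3 (-0.035) and Kat2a (-0.028) turned in early exercise at 24 weeks, Sirt4 (-0.11), Sirt6 (-0.23) and Brd7 (-0.25) in later against early exercise, and Setd6 (-0.155), Smarca4 (-0.13), Sirt3 (-0.32), Smarcd2 (-0.047) and Kdm8 (-0.071) in the response between ages. With the length score, Setd5 turned at 9 weeks (0.050) and Ubn2 (0.034) and Smarcd2 (-0.033) in early exercise at 24 weeks. With the median raw signal in place of the mean, the brightness ratio of early exercise to sedentary rats at 24 weeks was 0.872 (exact permutation test, adjusted p = 0.263) and that of later to early exercise rats 0.845 (adjusted p = 0.0754). Signal over background limits the weak probes: Dnmt3b, Smarcad1 and Kmt5b were detected on 33, 32 and 35 of 36 arrays, and differences near the offset are compressed.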
